A study of Mus musculus with 9 samples.

Results

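The voltage-gated sodium and calcium channel genes of the mouse hippocampus were examined as a family. They were chosen by gene symbol and biotype alone: protein-coding genes whose symbol starts with Scn and a digit or with Cacn, leaving out Cacng2, Cacng3 and Cacng8, whose products are auxiliary subunits of AMPA receptors. The rule gave 37 of the 54532 genes listed, 14 sodium and 23 calcium channel genes, and used no expression value.

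RNA of the whole hippocampus was sequenced in 9 samples, 3 in each of 3 groups. All are labelled as from male C57BL/6 mice that were 6 to 8 weeks old when purchased and were kept 2 to a cage. The Con mice ate a standard diet, and the HMD mice ate a high-methionine diet for 8 weeks. The Bet+HMD mice ate the high-methionine diet for 8 weeks, and betaine, which donates methyl groups, was then given for 2 weeks at 2.5% (w/v) of the drinking water. Con mice are labelled WT, and no transgene is named for any group. Excess methionine raises homocysteine, which is why the diet serves as a model of hyperhomocysteinemia. The methods that describe the Con and HMD animals name female mice, so their sex is given differently in the sources, and 2 of the 3 Bet+HMD labels carry other digits in the strain name. Whether the diet went on during the betaine weeks is not clear from the sources. The Bet+HMD libraries were present in the later of the 2 deposited tables alone, so a batch and betaine cannot be told apart.

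Voltage-gated sodium channels open the rising phase of the action potential. Each is built from 1 large alpha subunit, which forms the pore, and smaller beta subunits, which adjust gating and anchor the channel. Voltage-gated calcium channels have the same plan: an alpha1 subunit forms the pore and sets the current type, and alpha2delta and beta subunits bring it to the membrane. The P/Q-, N- and R-type channels trigger transmitter release, L-type channels couple activity to gene expression, and T-type channels open near the resting potential and support burst firing.

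Levels are given as FPKM, fragments scaled by exonic length and by library size, which allows genes of different length to be compared. The 9 libraries held 16031464 to 18291952 reads assigned to genes. At least 1 read was found for 25315 to 25663 genes in the Bet+HMD libraries and for 20816 to 23272 genes in the Con libraries and 20960 to 22502 in the HMD libraries. Summed FPKM ran from 249135 to 258514 in Bet+HMD and from 288438 to 307899 in Con and HMD. The hippocampal neuron markers (8 genes, Prox1 and Wfs1 among them) summed to 322 to 349 FPKM in Con, 306 to 366 in HMD and 281 to 285 in Bet+HMD. The labelled tissue was thus present in every library, and every Bet+HMD sum lay below every Con and HMD sum. Of these 8 genes 2, Bok and Calb1, fell in Bet+HMD against HMD, and 3, these and Grp, fell against Con. None of the 8 rose in either comparison. Of the genes of 11 marker lists for cell types and neighbouring regions, 0 of 67 tested passed the test in HMD against Con. In Bet+HMD against HMD 3 rose and 27 fell of 67 tested, and in Bet+HMD against Con 4 rose and 19 fell of 65. Over all genes tested 22.8% rose and 25.5% fell against HMD, and 19.4% rose and 20.4% fell against Con. In whole tissue, fewer cells of a type and less RNA per cell cannot be told apart.

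Of the 37 genes, 26 reached a mean of 1 FPKM over the 6 libraries of each comparison and were tested. Cacng7, whose product is also an auxiliary subunit of AMPA receptors, had a mean of 54.0 FPKM over the 9 libraries, ahead of the sodium channel beta genes Scn2b at 49.2 and Scn3b at 46.9 and the calcium channel beta gene Cacnb3 at 38.0. Among pore-forming genes Scn2a, the main alpha subunit of excitatory neurons, led at 32.4 FPKM, and Scn8a, the alpha subunit of the axon initial segment and of nodes, followed at 26.1. The calcium channel pore gene with the highest level was Cacna1e (R-type) at 20.6 FPKM.

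**Figure D1:**
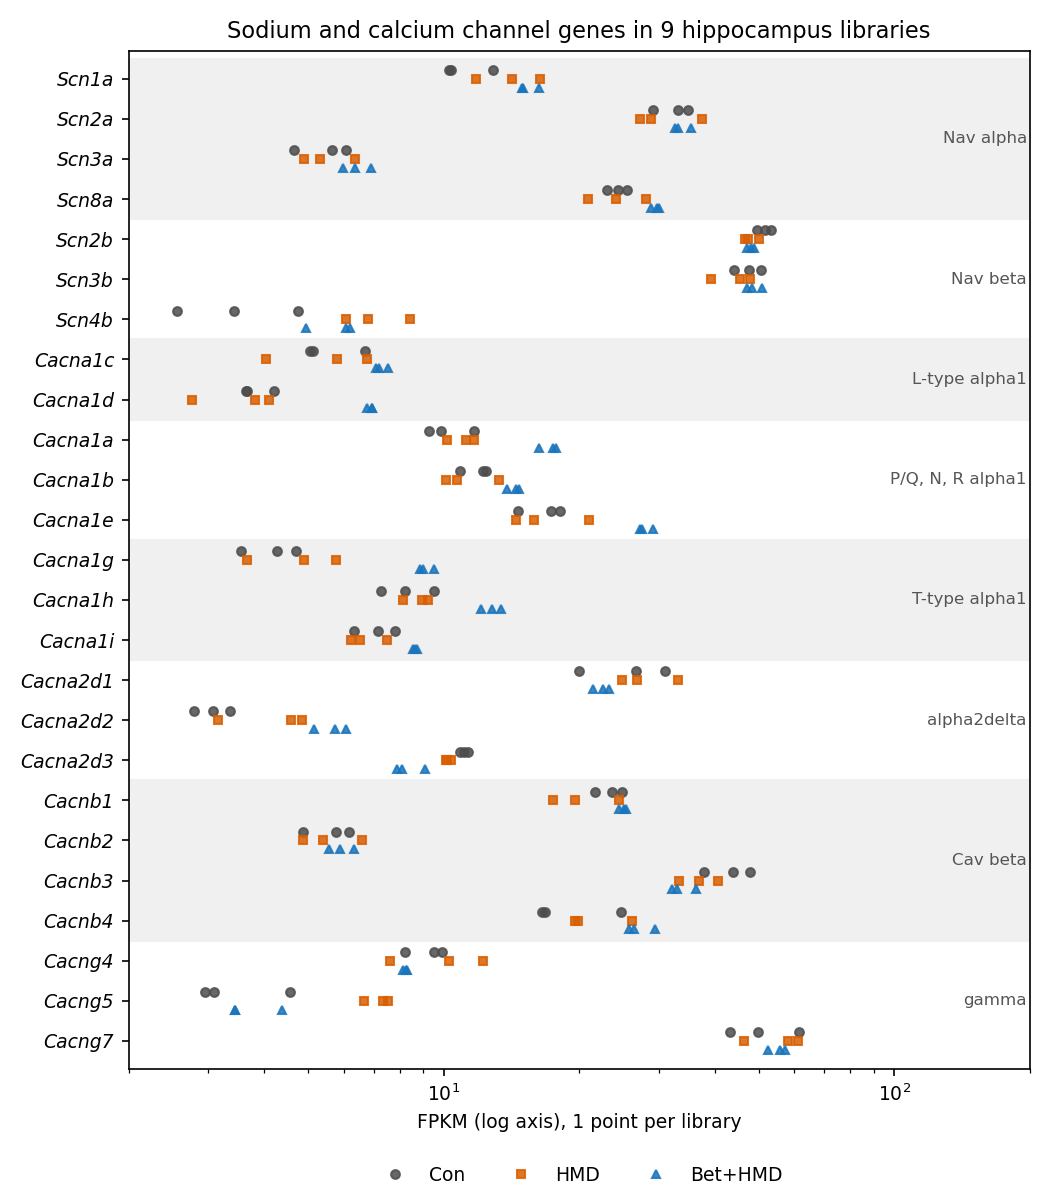
FPKM on a log axis of 25 tested channel genes, grouped by the role of the subunit, with 1 point for each of the 9 libraries (circles Con, squares HMD, triangles Bet+HMD). The Bet+HMD points of Cacna1a, Cacna1d, Cacna1e, Cacna1g and Cacna1h lie to the right of all Con and HMD points, and the HMD points of Cacng5 lie to the right of both other groups.

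The 11 genes under the filter belong mostly to muscle, retina or peripheral nerve. Scn7a lay just below it, at 0.586 to 1.46 FPKM, and Cacna2d2 was the tested gene closest above it, with a mean of 4.31 FPKM over the 9 libraries. Scn9a, a gene of peripheral sensory neurons, lay at 0.352 to 0.792 FPKM and Cacng6 at 0.165 to 0.727. Cacna2d4 lay at 0.0972 to 0.317 FPKM, a value that is uncertain because the gene overlaps Lrtm2 on the other strand. Cacna1s and Cacng1 of skeletal muscle, Scn4a of skeletal muscle, and the sensory neuron genes Scn10a and Scn11a had at most 20 reads in any library. Cacna1f, known for its role in photoreceptors, had 5, 0 and 3 reads in Con, 1, 1 and 2 in HMD, and 19, 26 and 26 in Bet+HMD. With no filter on low values it was the 1 gene of the 11 past the threshold, with an adjusted p of 0.013 against HMD and 0.0205 against Con (limma). In the same fits 7013 of 30935 genes passed against HMD and 5830 of 31061 against Con.

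The first comparison asked what the high-methionine diet alone changed. None of the 26 tested channel genes passed the threshold, an adjusted p under 0.05 by limma on log2(FPKM + 1), and neither did any of the 13004 genes tested (0%, with 588 at an unadjusted p under 0.05). The smallest adjusted p among the channel genes was 0.453, and 2 channel genes had an unadjusted p under 0.05. The median difference of the channel genes was 0.006 on the log2 scale, against -0.008 over all genes tested. In 2 channel genes all HMD libraries lay above all Con libraries and in 1 gene all lay below, where 4.71% and 4.9% of all genes tested did so.

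Cacng5, whose product is also an auxiliary subunit of AMPA receptors, had 3.09, 4.55 and 2.96 FPKM in Con and 7.52, 6.67 and 7.34 in HMD. All HMD libraries lay above all Con libraries. The difference was 0.87 ± 0.15 (SE, n = 3 per group) on the log2 scale with an adjusted p of 0.453 (limma).

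Scn4b, the beta subunit tied to resurgent sodium current, had 2.56, 4.76 and 3.43 FPKM in Con and 8.42, 6.78 and 6.08 in HMD, again without overlap. The difference was 0.84 ± 0.19 (SE, n = 3 per group) with an adjusted p of 0.754 (limma). Cacna2d2, an alpha2delta gene, had the next smallest p, at 0.34 ± 0.15, with 3.08, 2.79 and 3.35 FPKM in Con and 4.86, 3.16 and 4.59 in HMD and ranges that overlapped.

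Markers of the thalamus, which lies next to the hippocampus, moved in the same libraries. The 7 thalamus markers summed to 16.03, 19.2 and 17.7 FPKM in Con and to 68.2, 25.7 and 32.5 in HMD, and all 5 that were tested were higher in every HMD library than in every Con library. The thalamus gene Tcf7l2 had 1.01, 1.01 and 0.535 FPKM in Con and 10.8, 2.1 and 1.89 in HMD, and no thalamus marker was at 0 in any library. HMD library 1 had the highest thalamus sum and also the highest Cacng5, Scn4b, Scn1a, Cacna1g, Cacna2d2 and Cacng4 of its group. The other tested channel genes reported here, which are the greater number, were highest in HMD library 2 or 3. Without HMD library 1 the differences of Cacng5 and Scn4b kept their direction, as they did under each of the 19 alternatives. In these Cacng5 ran from 0.78 to 1.04 and Scn4b from 0.67 to 1.02. The 7 striatum markers summed to 26.8 to 37.4 FPKM in Con and to 30.8 to 50.1 in HMD. Of the 6 tested, Drd2 (mean 0.817 FPKM in Con and 2.73 in HMD) and Penk (8.79 and 16.3) were higher in every HMD library than in every Con library. The others overlapped, and none passed the test. In Bet+HMD against HMD Drd2 and Penk were called lower and Rgs9 higher (limma). The part of these markers in the channel genes' values was not tested.

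**Figure D2:**
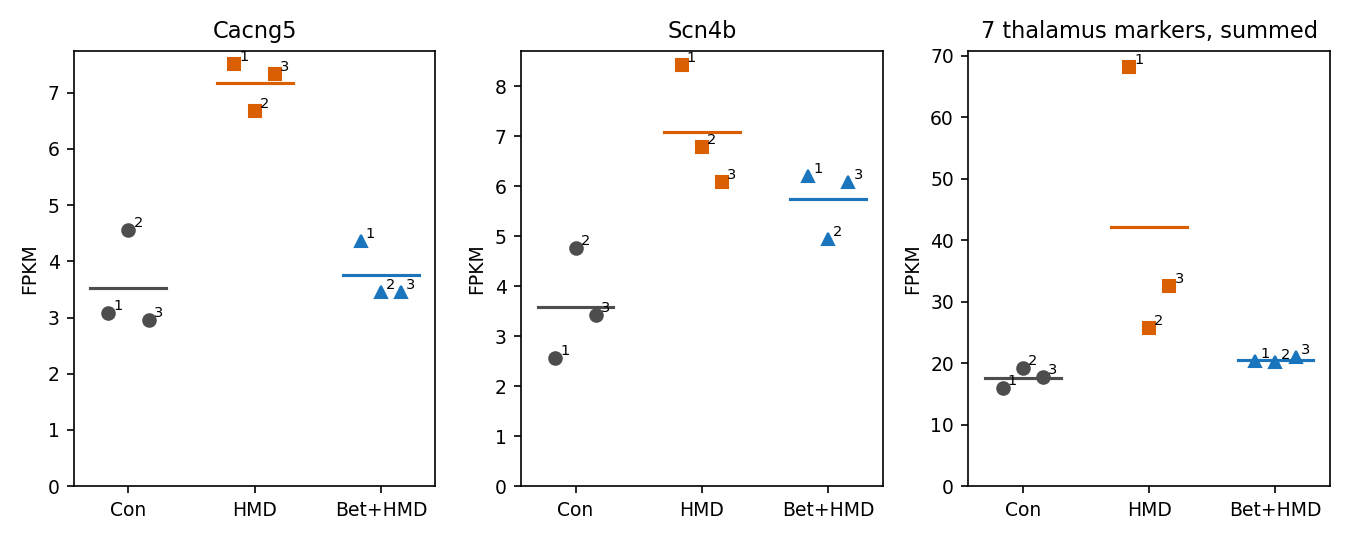
FPKM of Cacng5, of Scn4b and of 7 thalamus markers summed, by group; points are single libraries with their replicate number and lines are group means. HMD libraries lie above Con libraries in all 3 panels, and HMD library 1 stands at 68.2 in the thalamus sum, where the Bet+HMD libraries lie at 20.2 to 21.0.

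The second comparison asked how hippocampi of betaine-treated mice differed from those of mice on the high-methionine diet alone. Calcium channel pore genes were higher in Bet+HMD: 7 of the 8 tested alpha1 genes rose, covering the P/Q, N, R, L and T types, and none fell. The other channel genes did not move as a family, with Cacna2d3 and Cacng5 among those lower and 15 not past the threshold. In all, 10 of the 26 tested channel genes passed (limma, adjusted p under 0.05), 7 higher and 3 lower, where 48.3% of the 13672 genes tested passed, 22.8% higher and 25.5% lower. Among the protein-coding genes of the same fit 19.8% were higher and 27.4% lower. In 10 channel genes all Bet+HMD libraries lay above all HMD libraries and in 4 all lay below, against 28.3% and 31.8% of all genes. With the deposited scaling the share of channel genes that rose was thus near that of all genes, and all higher calls lay among the alpha1 genes. Under other scalings more channel genes rose: 15 of 26 under TPM, where 4496 of 13672 genes rose, 14 under quantile normalization, where 3071 rose, and 14 with voom on recovered reads, where 3933 rose. The median difference of the channel genes was 0.168, and that of all genes tested was -0.025.

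Sequences upstream of the start were available from RefSeq (GRCm38.p6) for 27 of the 37 genes, as 38 windows with 250 bases before the start. They are shown for channel genes that were called in Bet+HMD against HMD and whose window overlaps no annotated exon, the higher genes first, so that genes that moved together can be read side by side. For Cacng5 only the window with the highest start coordinate is shown. Capitals mark the GC box GGGCGG on either strand, where overlapping matches run together, and each sequence is written 5′ to 3′ on the strand of its gene.
Cacna1b (chr2:24763153-24763402, minus strand): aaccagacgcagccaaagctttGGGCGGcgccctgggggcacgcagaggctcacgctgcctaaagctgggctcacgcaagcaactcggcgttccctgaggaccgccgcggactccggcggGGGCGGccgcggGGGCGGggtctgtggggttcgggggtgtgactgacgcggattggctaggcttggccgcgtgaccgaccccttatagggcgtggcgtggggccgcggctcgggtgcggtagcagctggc
Cacna1d (chr14:30353487-30353736, minus strand): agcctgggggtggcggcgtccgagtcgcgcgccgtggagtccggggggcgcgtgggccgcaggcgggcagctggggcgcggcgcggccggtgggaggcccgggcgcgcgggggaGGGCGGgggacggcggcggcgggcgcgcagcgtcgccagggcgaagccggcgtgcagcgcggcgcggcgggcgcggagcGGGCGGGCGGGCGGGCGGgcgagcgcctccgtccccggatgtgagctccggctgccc
Cacna1i (chr15:80286988-80287237, plus strand): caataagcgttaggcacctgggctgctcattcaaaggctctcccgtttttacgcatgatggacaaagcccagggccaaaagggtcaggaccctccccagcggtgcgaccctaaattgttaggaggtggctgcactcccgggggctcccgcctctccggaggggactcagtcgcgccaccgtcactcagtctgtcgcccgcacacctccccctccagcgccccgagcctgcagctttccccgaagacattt
Cacna2d3 (chr14:29721865-29722114, minus strand): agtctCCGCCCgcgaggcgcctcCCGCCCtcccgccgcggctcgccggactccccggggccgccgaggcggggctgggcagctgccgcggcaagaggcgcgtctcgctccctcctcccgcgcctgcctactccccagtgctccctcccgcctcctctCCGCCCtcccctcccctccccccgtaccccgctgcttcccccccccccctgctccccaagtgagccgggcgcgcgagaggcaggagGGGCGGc
Cacng5 (chr11:107915056-107915305, minus strand): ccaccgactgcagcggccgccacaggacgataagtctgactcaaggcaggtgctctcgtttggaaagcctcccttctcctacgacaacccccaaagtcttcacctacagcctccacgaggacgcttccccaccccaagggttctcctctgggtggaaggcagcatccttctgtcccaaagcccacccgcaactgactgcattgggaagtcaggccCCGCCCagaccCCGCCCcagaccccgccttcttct

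The GC box was found 3 times in the Cacna1b window, 5 times in that of Cacna1d at an internal start of the gene, and 0 times in that of Cacna1i, all higher in Bet+HMD. It was found 4 times in the window shown for Cacna2d3 and 2 times in that shown for Cacng5, both lower. The 2 lower genes with windows had 3 windows, of which 2 held the GC box, and the window without it is not shown. The 4 higher genes with windows had 5 windows, of which 2 held the GC box. Windows of higher genes that overlap an annotated exon, none of them with the GC box, are not shown. The windows shown hold 62% to 86.4% G and C. Over all 38 windows of the channel genes 39.5% held the GC box, against 32.7% of the 32851 windows of the table, and the motif was present among both the higher and the lower genes. A match is a description of these letters and not a site of binding.

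Cacna1g, a T-type pore gene, had 5.77, 3.67 and 4.89 FPKM in HMD and 8.86, 9.51 and 8.98 in Bet+HMD. The groups did not overlap, and the level was 1.91-fold higher, a log2 difference of 0.82 ± 0.13 with an adjusted p of 0.00244 (limma, SE, n = 3 per group).

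Cacna1d, an L-type pore gene known for pacemaking and for opening at low voltage, had 3.82, 4.1 and 2.77 FPKM in HMD and 6.75, 6.94 and 6.94 in Bet+HMD. It differed by 0.80 ± 0.12 with an adjusted p of 0.0017 (limma), and the ranges were apart. Cacna1d overlaps Dcp1a, a gene of mRNA decapping that had 453 reads per library on average against 1030 for Cacna1d, and whether reads were counted by strand is not stated. The other tested L-type gene, Cacna1c, differed by 0.36 ± 0.15 with an adjusted p of 0.0872 (limma), although its 3 Bet+HMD libraries (7.09 to 7.54 FPKM) all lay above the HMD libraries (4.04 to 6.76). Cacna1c overlaps Dcp1b, with 269.7 reads per library on average against 2224.8 for Cacna1c.

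Cacna1e, the R-type pore gene of dendritic spines and nerve terminals, had 15.9, 21.0 and 14.5 FPKM in HMD and 27.3, 27.5 and 29.1 in Bet+HMD. The log2 difference was 0.69 ± 0.13 with an adjusted p of 0.00429 (limma). Cacna1a, the P/Q-type pore gene that carries most calcium entry at fast synapses, had 11.2, 10.2 and 11.7 FPKM in HMD and 16.3, 17.8 and 17.5 in Bet+HMD. It was 1.56-fold higher at 0.60 ± 0.08 with an adjusted p of 0.000911 (limma), and again no library of one group fell within the other. Cacna1h, the second T-type gene, had 8.11, 8.96 and 9.21 FPKM in HMD and 12.1, 12.8 and 13.4 in Bet+HMD, and differed by 0.49 ± 0.08 with an adjusted p of 0.00215 (limma).

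The remaining alpha1 genes moved less. Cacna1b, the N-type pore gene, had 10.7, 13.3 and 10.1 FPKM in HMD and 13.8, 14.7 and 14.5 in Bet+HMD, a difference of 0.32 ± 0.11 with an adjusted p of 0.0388 (limma). The ranges were apart by a narrow margin, and the call was lost in 8 of 18 alternatives. Among them was the leaving out of HMD library 1 or 3 or any 1 Bet+HMD library (adjusted p 0.0811 to 0.117). Cacna1i, the remaining T-type gene, had 6.52, 7.47 and 6.22 FPKM in HMD and 8.54, 8.72 and 8.65 in Bet+HMD, at 0.32 ± 0.08 with an adjusted p of 0.0157 (limma). Its call was lost without any 1 Bet+HMD library (adjusted p 0.053 to 0.0613). By contrast Cacna1a, Cacna1d, Cacna1e, Cacna1g and Cacna1h kept their calls in all 18 alternatives of this comparison and of Bet+HMD against Con.

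**Figure D3:**
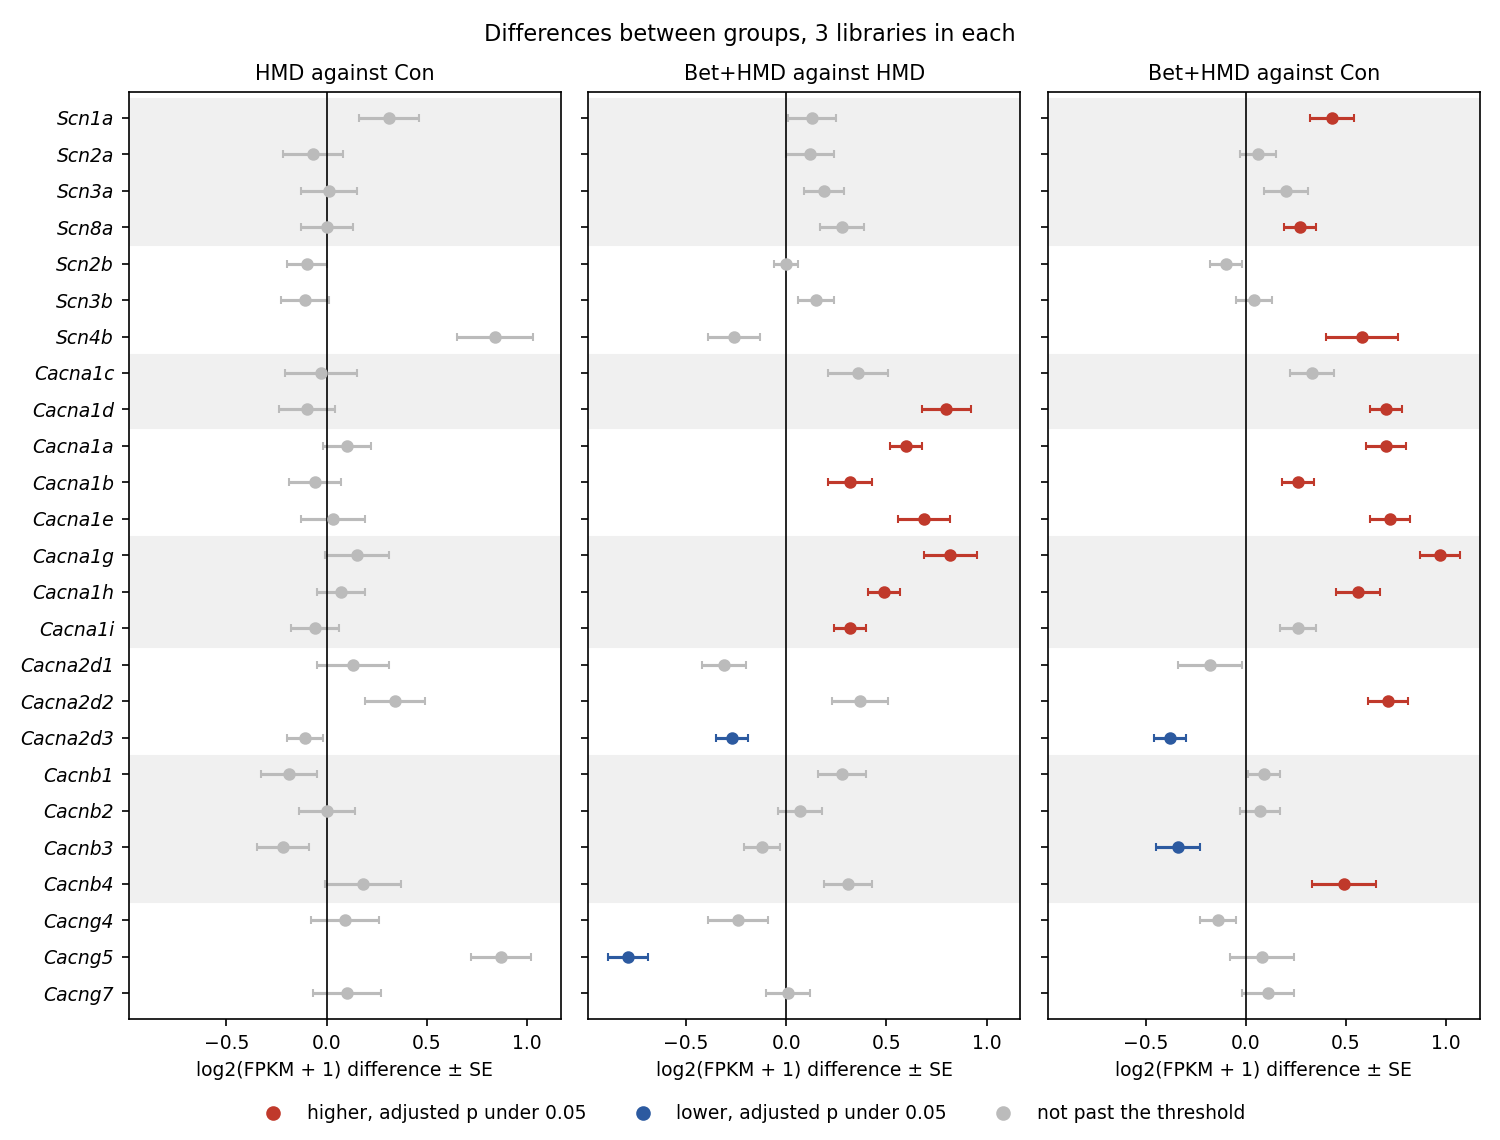
Difference in log2(FPKM + 1) with its moderated standard error for 25 channel genes in the 3 comparisons, in the same order as the plot of levels; red and blue mark genes higher and lower at an adjusted p under 0.05 (limma) and grey marks the rest. No gene is coloured in HMD against Con, and the red points in both Bet+HMD panels gather among the Cacna1 genes.

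Cacng5 fell in Bet+HMD against HMD. It had 7.52, 6.67 and 7.34 FPKM in HMD and 4.37, 3.45 and 3.45 in Bet+HMD, a log2 difference of -0.79 ± 0.10 with an adjusted p of 0.000859 (limma), and it kept that call in all 18 alternatives. The Bet+HMD level lay at that of Con, with a difference of 0.08 ± 0.16 (95% interval -0.29 to 0.45, adjusted p 0.71 by limma) whose sign changed under quantile normalization (-0.02) and without Con library 3 or Bet+HMD library 1 (-0.01 each). Since the HMD libraries enter both comparisons, the higher level in HMD against Con and the fall here are not independent. The thalamus sum was 20.2 to 21.0 FPKM in Bet+HMD and 25.7 to 68.2 in HMD, and 3 of the 5 tested thalamus markers fell with an adjusted p under 0.05, so that the markers moved with Cacng5 here as well.

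Scn4b had 8.42, 6.78 and 6.08 FPKM in HMD and 6.2, 4.95 and 6.08 in Bet+HMD with overlapping ranges, at -0.26 ± 0.13 with an adjusted p of 0.135 (limma). Scn2b and Scn3b did not pass, at 0.00 and 0.15, and none of the 4 tested sodium channel alpha genes passed the test, at 0.12 to 0.28.

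Among alpha2delta genes, whose products bring channels to terminals and bind the drug gabapentin in the case of Cacna2d1 and Cacna2d2, Cacna2d3 fell. It had 10.1, 10.4 and 10.2 FPKM in HMD and 7.9, 9.07 and 8.09 in Bet+HMD, at -0.27 ± 0.08 with an adjusted p of 0.022 (limma). The call was lost after rescaling to TPM, with voom, with a replicate block, and without Bet+HMD library 1 or 3 (adjusted p 0.0827 to 0.0941). Cacna2d1 had 24.9, 33.1 and 26.9 FPKM in HMD and 22.6, 21.5 and 23.3 in Bet+HMD, and narrowly missed the threshold with an adjusted p of 0.0506 (limma) for a difference of -0.31 ± 0.11. Cacna2d2 stood at 0.37 ± 0.14 with an adjusted p of 0.0641 (limma). None of the 4 calcium channel beta genes passed the test, with differences from -0.12 for Cacnb3 to 0.31 for Cacnb4. Cacng4 and Cacng7 did not pass, at -0.24 and 0.01.

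The third comparison set Bet+HMD against Con and shares the Bet+HMD libraries with the second, so that the 2 are not independent. The alpha1 genes were again higher, 6 of 8 at the threshold and all 8 with every Bet+HMD library above every Con library. Sodium channel alpha genes Scn1a and Scn8a and the auxiliary genes Cacna2d2, Cacnb4 and Scn4b were also higher, and Cacna2d3 and Cacnb3 were among those lower. Together 14 of the 26 tested channel genes passed (limma, adjusted p under 0.05), 11 higher and 3 lower, where 39.7% of 13643 genes passed, 19.4% higher and 20.4% lower. Among the protein-coding genes of the same fit 16.3% were higher and 21.7% lower. Every Bet+HMD library lay above every Con library for 13 channel genes and below for 4, against 26.1% and 29% of all genes. The median difference was 0.229 for the channel genes and -0.038 over all genes tested. Between the 2 comparisons 8 channel genes passed in both with the same sign, 2 passed against HMD alone, 6 against Con alone and 10 in neither.

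Against Con, Cacna1g was the channel gene with the largest difference. It had 4.7, 3.55 and 4.27 FPKM in Con, so that Bet+HMD was 2.18-fold higher at 0.97 ± 0.10 with an adjusted p of 0.000829 (limma). Cacna1e with 18.1, 17.3 and 14.6 FPKM in Con differed by 0.72 ± 0.10, Cacna1d with 4.2, 3.67 and 3.65 by 0.70 ± 0.08, and Cacna1a with 11.7, 9.29 and 9.88 by 0.70 ± 0.10. Cacna1h with 9.53, 7.25 and 8.19 FPKM in Con differed by 0.56 ± 0.11, and these 4 had adjusted p of 0.00109 to 0.00701 (limma). Cacna1b with 12.4, 10.9 and 12.2 FPKM in Con was 0.26 ± 0.08 higher with an adjusted p of 0.042 (limma). Its call was lost in 9 of 18 alternatives, among them the leaving out of Con library 1 or 2 or any 1 Bet+HMD library (adjusted p 0.0534 to 0.154). Cacna1i and Cacna1c did not pass, at 0.26 ± 0.09 and 0.33 ± 0.11 with adjusted p of 0.0607 and 0.0541 (limma).

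Cacna2d2, with 3.08, 2.79 and 3.35 FPKM in Con and 5.73, 6.08 and 5.16 in Bet+HMD, was 1.84-fold higher at 0.71 ± 0.10 with an adjusted p of 0.00191 (limma). It held the call in the 17 alternatives in which it was tested. The HMD libraries (4.86, 3.16 and 4.59 FPKM) overlapped those of Con and lay below those of Bet+HMD. Scn1a, the alpha subunit on which fast-spiking interneurons depend, had 10.4, 12.9 and 10.3 FPKM in Con and 14.9, 15.0 and 16.3 in Bet+HMD, at 0.43 ± 0.11 with an adjusted p of 0.0174 (limma). That call was lost in 5 of 18 alternatives, among them the leaving out of Con library 1 or any 1 Bet+HMD library (adjusted p 0.0539 to 0.0746). The 6 interneuron markers summed to 269 to 296 FPKM in Con, 269 to 344 in HMD and 196 to 224 in Bet+HMD. Sst had the most of them, with a mean of 156 FPKM in Con. Against Con none of the 6 had a positive difference, but only 2, Slc32a1 and Sst, were called lower (limma) and 4 were not called. In Bet+HMD against HMD none was positive either, 4 (Pvalb, Slc32a1, Gad2 and Gad1) were called lower and 2 were not called. The part of these markers in the values of Scn1a was not tested.

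Scn8a had 25.5, 24.4 and 23.0 FPKM in Con, 24.1, 28.2 and 20.9 in HMD and 28.8, 29.8 and 30 in Bet+HMD, at 0.27 ± 0.08 against Con with an adjusted p of 0.0304 (limma). The call was lost in 6 of 18 alternatives, among them the leaving out of any 1 Bet+HMD library (adjusted p 0.0938 to 0.121). Scn2a, with 33.2, 34.9 and 29.2 FPKM in Con, 28.8, 37.4 and 27.3 in HMD and 32.6, 33.2 and 35.4 in Bet+HMD, differed by 0.06 ± 0.09 (95% interval -0.17 to 0.28) and its ranges overlapped in all comparisons. Scn3a, the alpha subunit most used before birth, stayed within 4.66 to 6.91 FPKM in the 9 libraries and did not pass in any comparison.

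Scn4b was higher than in Con at 0.58 ± 0.18 with an adjusted p of 0.0414 (limma). The call was lost in 8 of 17 alternatives, among them the leaving out of Con library 1 or 3 or any 1 Bet+HMD library (adjusted p 0.0636 to 0.127). Cacnb4, the beta subunit most linked to P/Q-type channels, had 16.5, 24.8 and 16.8 FPKM in Con, 19.9, 26.2 and 19.6 in HMD and 26.4, 25.8 and 29.5 in Bet+HMD, at 0.49 ± 0.16 against Con with an adjusted p of 0.048 (limma). This call was lost in 9 of 18 alternatives, among them the leaving out of Con library 1 or 3 or any 1 Bet+HMD library (adjusted p 0.093 to 0.15). Cacnb3 had 47.9, 37.9 and 44.0 FPKM in Con, 36.8, 33.3 and 40.7 in HMD and 32.9, 36.3 and 32.1 in Bet+HMD, lower by -0.34 ± 0.11 with an adjusted p of 0.044 (limma). Its call was lost in 12 of 18 alternatives, among them the leaving out of Con library 1 or 3 or any 1 Bet+HMD library (adjusted p 0.0623 to 0.148). Cacna2d3 had 11.1, 11.3 and 10.9 FPKM in Con and was lower by -0.38 ± 0.08 with an adjusted p of 0.0113 (limma), lost without Bet+HMD library 1 or 3 (adjusted p 0.0574 to 0.0601) and under TPM (-0.19, adjusted p 0.148).

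Several abundant auxiliary genes passed in no comparison. Scn2b, whose product is linked to the alpha subunit by a disulfide bond, had 51.8, 49.7 and 53.3 FPKM in Con, 46.6, 50 and 47.4 in HMD and 48.9, 48.2 and 47.1 in Bet+HMD. Scn3b had 44.2, 47.7 and 50.7 FPKM in Con, 39.2, 45.4 and 47.9 in HMD and 47.2, 48.4 and 50.9 in Bet+HMD. The levels of both overlapped between Bet+HMD and HMD, while every Bet+HMD library lay below every Con library for Scn2b.

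Cacng7 had 61.5, 49.9 and 43.3 FPKM in Con, 58.2, 46.5 and 61.3 in HMD and 57.3, 55.9 and 52.4 in Bet+HMD. Cacnb1, the beta subunit best known from skeletal muscle, had 24.9, 21.7 and 23.6 FPKM in Con, 19.6, 17.5 and 24.5 in HMD and 24.5, 25.4 and 25.1 in Bet+HMD. Neither passed, and nor did Cacnb2 (5.72 FPKM on average) and Cacng4 (9.15 FPKM). Cacna2d1, with 26.7, 31.0 and 20 FPKM in Con, did not pass against Con at -0.18 ± 0.16.

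The summed level of each kind of subunit is given as a description without a test. The 10 alpha1 genes summed to 67.9 ± 6.28 FPKM in Con, 69.0 ± 6.09 in HMD and 104 ± 3.04 in Bet+HMD (n = 3, mean ± SD). The 4 calcium channel beta genes summed to 91.6 ± 3.33, 85.01 ± 4.11 and 91.9 ± 2.25, and the 4 alpha2delta genes to 40.3 ± 5.42, 43.0 ± 3.56 and 36.6 ± 0.231 in the same order. The ratio of summed beta to summed alpha1 FPKM was 1.27, 1.4 and 1.39 in Con, 1.2, 1.11 and 1.41 in HMD and 0.885, 0.882 and 0.875 in Bet+HMD. All Bet+HMD libraries lay below those of the other groups. The beta genes have 4010 to 13228 bases of exon and the alpha1 genes 6550 to 25228. Differences in Bet+HMD rose with exonic length over all protein-coding genes, as given below. The part of length in this ratio was not tested. The summed sodium alpha genes were 75.1 ± 5.83, 77.6 ± 11.1 and 87.0 ± 3.32 FPKM, and HMD and Bet+HMD libraries overlapped.

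Within the alpha1 family the mix of subunits differed between the groups by at most a few percentage points, and no difference passed a test. The share of Cacna1d in the summed FPKM of the 8 alpha1 genes was 5.66% ± 0.0633 in Con, 5.14% ± 0.676 in HMD and 6.60% ± 0.0859 in Bet+HMD (n = 3, with the SD). Cacna1g held 6.14% ± 0.569, 7.03% ± 1.92 and 8.75% ± 0.283. The share of Cacna1b was smaller in Bet+HMD, at 17.5% ± 1.27, 16.4% ± 1.06 and 13.8% ± 0.14, although its own level was higher in Bet+HMD. Cacna1i held 10.5% ± 0.651, 9.77% ± 0.144 and 8.29% ± 0.171. In the sodium alpha family the share of Scn2a was 44.2% ± 0.674 in Con, 41.4% ± 2.46 in HMD and 39.6% ± 0.297 in Bet+HMD, and that of Scn1a was 15.2% ± 1.35, 18.9% ± 2.82 and 18.1% ± 0.301. None of the 36 shares tested passed, with a smallest p of 0.1 in the two-sided exact permutation test and 0.277 after Benjamini-Hochberg adjustment, and 3 samples against 3 cannot give a p under 0.1. The shares of 8 of 12 genes did not overlap between Bet+HMD and Con, 4 of 12 between Bet+HMD and HMD and 1 of 12 between HMD and Con. Shares within a family depend on one another, and shares of other families were not computed. For the levels of all genes tested, 26.1% lay apart upward and 29% downward in Bet+HMD against Con. These values were 28.3% and 31.8% in Bet+HMD against HMD, and 4.71% and 4.9% in HMD against Con.

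**Figure D4:**
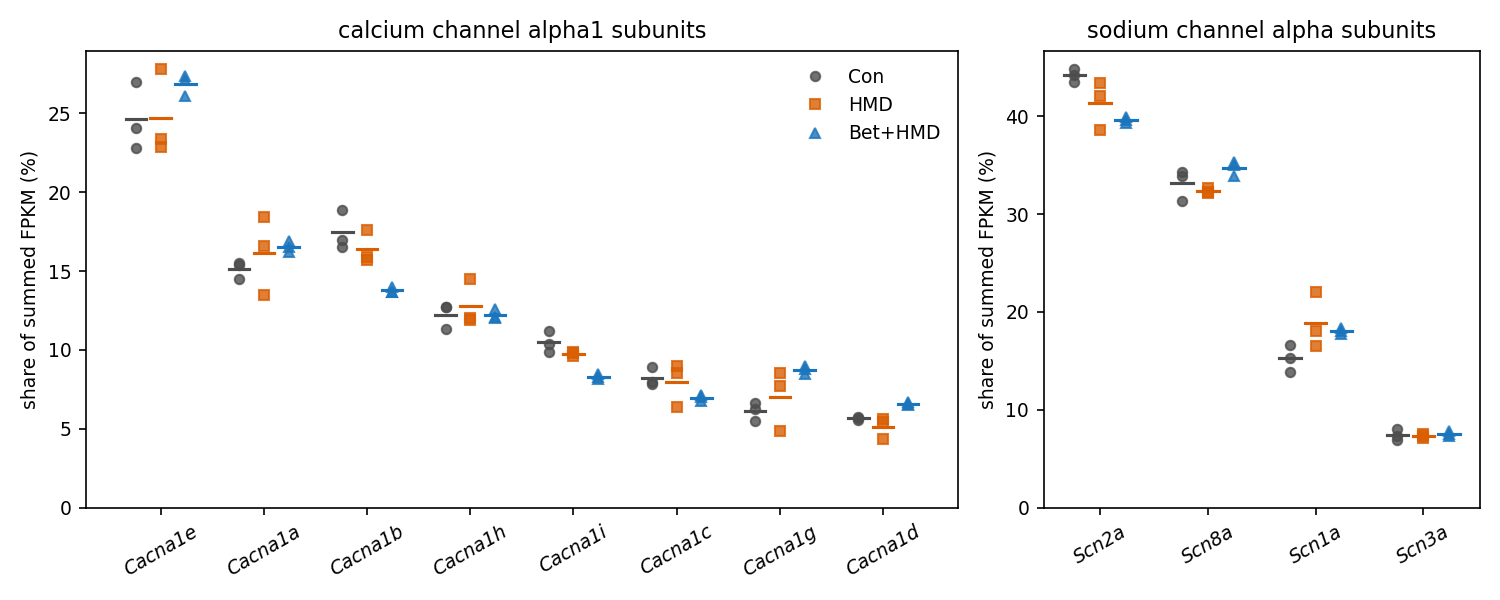
Share of each gene in the summed FPKM of its family, in percent, for 8 calcium channel alpha1 genes (left) and 4 sodium channel alpha genes (right), with 1 point per library and a line at the mean of each group. Cacna1d and Cacna1g take larger shares in Bet+HMD than in Con, Cacna1b and Cacna1i smaller ones, and the share of Scn2a is 44.2% in Con and 39.6% in Bet+HMD.

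Channel genes are long, and length moved with the Bet+HMD differences across the whole transcriptome. The 20 pore-forming genes have at least 5931 bases of exon. Among protein-coding genes in Bet+HMD against HMD, the median log2 difference was -0.353 for the 1477 genes under 2 kb of exon, -0.148 at 2 to 4 kb, -0.035 at 4 to 7 kb, 0.036 at 7 to 10 kb and 0.126 for the 1242 genes over 10 kb. The share called higher went from 9.88% under 2 kb to 33.9% over 10 kb, and the share called lower from 44.5% to 8.05%. Of the 11 tested channel genes over 10 kb 4 were called higher and none lower, with a median of 0.277, and the 6 genes of 7 to 10 kb had 3 higher and 1 lower, with a median of 0.322. In Bet+HMD against Con the medians went from -0.45 under 2 kb to 0.175 over 10 kb, and in HMD against Con from -0.105 to 0.038.

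Cacna1a, Cacna1d, Cacna1e and Cacna1g lay above the upper quartile of the protein-coding genes over 10 kb, 0.364 against HMD and 0.394 against Con, and Cacna1h lay above that of the genes of 7 to 10 kb, 0.304 and 0.317. When a running line on exonic length was taken off each library, an alternative chosen after the data were seen, 10 channel genes passed against HMD (6 higher, 4 lower) and 10 against Con (8 higher, 2 lower). Of all genes 3112 were higher and 3368 lower of 13672 against HMD, and 2520 and 2487 of 13643 against Con. Cacna1a then differed from HMD by 0.48, Cacna1d by 0.66, Cacna1e by 0.39, Cacna1g by 0.73 and Cacna1h by 0.40, all still called, while Cacna1b lost its call in both comparisons and Scn8a fell from 0.27 to 0.04 against Con. What lies behind the relation to length was not tested.

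**Figure D5:**
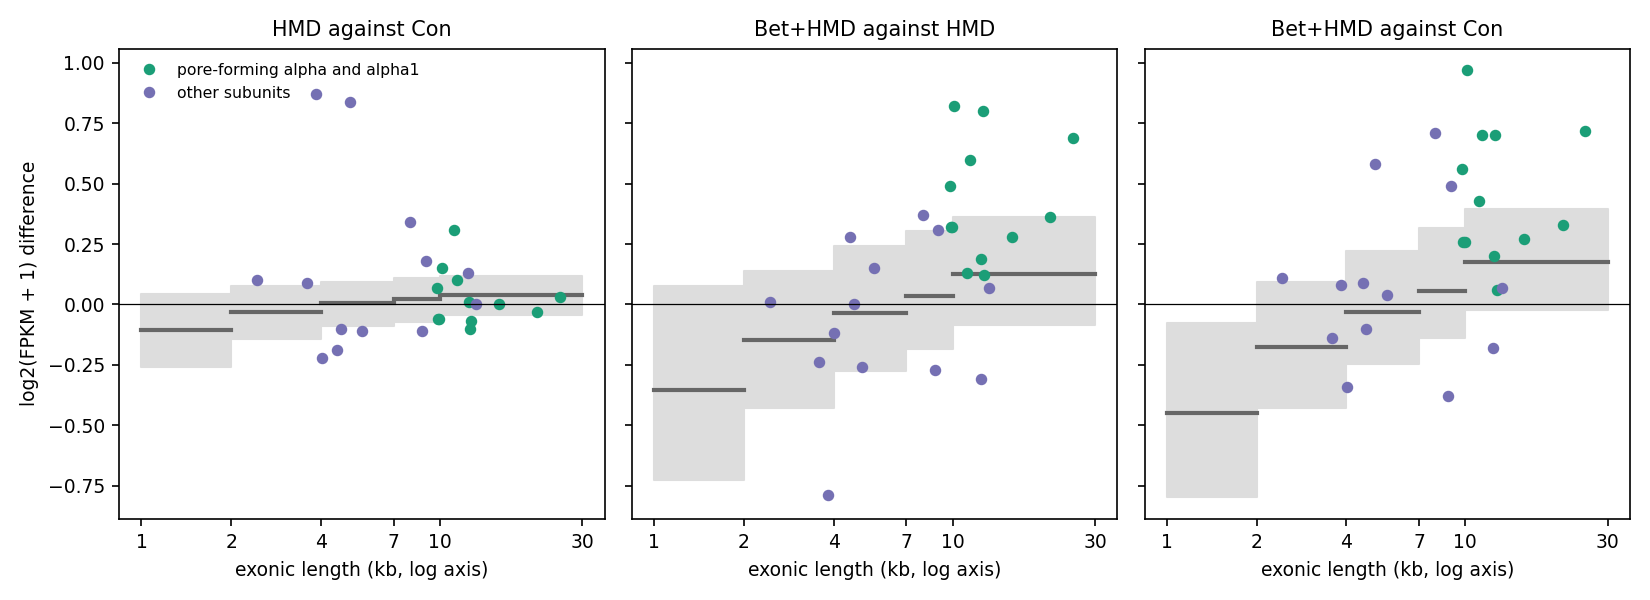
Difference in log2(FPKM + 1) against exonic length (log axis) in the 3 comparisons; dark lines are medians and grey boxes the quartiles of all tested protein-coding genes in bins of under 2, 2 to 4, 4 to 7, 7 to 10 and over 10 kb (the outer bins are drawn to 1 and 30 kb), and dots are 25 channel genes (green for pore-forming genes, purple for other subunits). In Bet+HMD against HMD the medians climb from -0.353 to 0.126, and 4 pore-forming genes over 10 kb lie above the box.

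The scaling of the libraries set the balance of higher and lower calls. Rescaling to TPM moved the median of all genes tested from -0.025 to 0.16 against HMD and from -0.038 to 0.168 against Con, and the share of higher genes among all calls from 47.2% to 69.5% and from 48.8% to 73.5%. Under TPM 17 channel genes passed against HMD, 15 higher and 2 lower, and 15 passed against Con, all higher. Of all genes 6470 of 13672 and 5412 of 13643 passed in these fits. Relative to these shifted medians the channel genes stood at a median of 0.376 against 0.16 and of 0.466 against 0.168. Quantile normalization gave 16 (14 higher, 2 lower) and 17 (16 higher, 1 lower), where 6420 and 5260 of all genes passed. Voom on recovered reads gave 16 (14 higher, 2 lower) and 16 (14 higher, 2 lower), where 6798 and 5511 of all genes passed. Without HMD library 2, 16 channel genes passed against HMD (12 higher, 4 lower), where 6990 of 13798 genes passed. Without Bet+HMD library 1, 2 or 3 the count against Con was 7, 8 or 6. The count over all genes was then 3424, 3347 or 3302, against 5422 in the main fit. The sign of none of the called channel genes changed under these scalings.

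A second list held 29 genes for proteins that bind, anchor or act beside these channels, of which 24 were tested in the Bet+HMD comparisons and 25 in HMD against Con. None of the 25 passed in HMD against Con. Against HMD, 10 of the 24 rose and 6 fell (limma), where 22.8% of all genes tested rose and 25.5% fell. Against Con 9 rose and 5 fell, where 19.4% of all genes rose and 20.4% fell. Under TPM 14 partner genes rose and 1 fell against HMD, where 4496 rose and 1974 fell of 13672 genes. Against Con 13 rose and 2 fell under TPM, where 3980 rose and 1432 fell of 13643 genes.

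Genes for the anchoring of sodium channels at the axon initial segment rose in both comparisons, 3 of 3. Sptbn4, a spectrin, had 11.2, 12.6 and 14.8 FPKM in HMD and 21.7, 22.3 and 21.2 in Bet+HMD, a difference of 0.72 ± 0.10 with an adjusted p of 0.00127 (limma). Ank3, which encodes ankyrin-G, and Nfasc, the adhesion protein neurofascin, differed by 0.55 ± 0.09 and 0.57 ± 0.08. Both tested calcium release channels of internal stores rose as well: Ryr3 had 1.89, 2.59 and 1.79 FPKM in HMD and 6.86, 7.03 and 6.76 in Bet+HMD, at 1.36 ± 0.11 with an adjusted p of 0.000156 (limma), and Ryr2 differed by 0.63 ± 0.11. The anchor and release channel genes named here have 9563 (Sptbn4) to 34838 (Ank3) bases of exon. Against HMD 27.3% of protein-coding genes of 7 to 10 kb and 33.9% of those over 10 kb were called higher, and against Con 25.3% and 33.4%. The part of length in these differences was not tested.

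At the presynaptic active zone, Rimbp2, which tethers calcium channels near vesicles, had 10.9, 11.3 and 11.8 FPKM in HMD and 23.9, 24.7 and 23.7 in Bet+HMD, at 1.02 ± 0.07 with an adjusted p of 7.08e-05 (limma). It was 1 of 5 genes of its group to rise, and 1 fell. Of the 4 intracellular fibroblast growth factor genes that bind sodium channels, Fgf11 rose at 0.86 ± 0.13 and Fgf13 fell at -0.32 ± 0.07, and the other 2 did not pass. Against Con the differences of the 8 genes with the smallest p were 1.24 for Ryr3, 0.95 for Rimbp2, 0.77 for Sptbn4, 0.56 for Ryr2, 0.55 for Ank3, 0.50 for Nfasc, -0.68 for Rem2 and -0.56 for Calm3. Rem2 encodes a small GTPase that lowers calcium currents, and Calm3 is 1 of the 3 calmodulin genes, of which 2 were lower in each comparison. With the length trend taken off, 8 partner genes passed higher and 6 lower against HMD, and 6 higher and 5 lower against Con. Of all genes 3112 were then higher and 3368 lower of 13672 against HMD, and 2520 and 2487 of 13643 against Con.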

How the data were processed

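Hippocampal RNA of 9 samples, 3 per group, was sequenced. The authors depleted ribosomal RNA, made stranded paired-end libraries, aligned reads to mm10 with HISAT2 2.1.0, counted them with featureCounts 1.5.0-p3 (submitters' processing notes) and deposited FPKM values per gene. Whether counting used strand is not stated in the sources used here. The later of the 2 deposited tables, which holds all groups, was used, and its columns named COL were read as Con. Its other deposited columns give gene annotation, and exonic length (in bases) was taken from there. Reads recovered from FPKM and length were whole for 100% of values (tolerance 0.1). The libraries held 16031464 to 18291952 reads, so 3 reads are at most 1.87e-05% of a library. This covers counting error only.

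Genes with a mean of at least 1 FPKM over the 6 libraries compared were tested by limma 3.58.1 (R 4.3.3) with an intensity trend on log2(FPKM + 1), which understates changes of low genes. Benjamini-Hochberg adjustment ran over every gene in the fit, with a call at 0.05. The fit was tested on simulated data. Shares were compared by two-sided exact permutation tests (Python 3.11.15, scipy 1.17.1). Titles number the libraries of each group from 1 to 3, and p-values measure the spread between these samples. In most marker sums the Bet+HMD libraries lay closer together than those of the other groups. Oligodendrocyte markers summed to 732 to 739.2 FPKM there, 671 to 1143 in Con and 752.5 to 1012 in HMD. Blood markers ran from 72.17 to 122.4 FPKM there and from 99.75 to 147.6 in Con. The reason for the narrower spread was not tested. Deviations of same-numbered Con and HMD samples were correlated for replicates 2 and 3 (0.337 and 0.32) and not for replicate 1 (-0.0581). Correlations with Bet+HMD samples ran from -0.176 to 0.0171. The main fits used no block, and a replicate block was among the alternatives. Values per sample are given for genes that passed in any comparison and the 4 most abundant sodium and calcium channel genes, with the 3 smallest p where no gene passed, and partners are named if past the threshold, at most 8 by p. Alternatives changed the pseudocount, filter, scaling, model and libraries used. The genes and lists were chosen with earlier results of these data known. Results for some of the channel genes are not reported here, although counts and medians over the family include them.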

Additional observations from a re-analysis of the deposited data

How the results depend on the processing

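No channel gene passed in HMD against Con under any alternative tried. Against HMD, where 10 passed, 17 passed under TPM, 16 under quantile normalization and 16 with voom, and leaving out 1 library gave 7 to 16. Of all genes 6607 passed in the main fit, 6470 under TPM, 6420 under quantile normalization and 6798 with voom. Leaving out 1 library gave 4782 to 6990 of all genes. Against Con, where 14 passed, a replicate block gave 8, and leaving out 1 library gave 6 to 13. Of all genes 5422 passed against Con, 3924 with the block, and 3302 to 6269 when 1 library was left out. The block gave 8 against HMD, where 5615 of all genes passed. Same-numbered samples correlated at up to 0.337 between Con and HMD and at most 0.0171 with Bet+HMD.

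The median log2 difference of the channel genes against HMD was 0.168, and was 0.0718 with no filter, 0.376 under TPM, 0.331 under quantile normalization, 0.28 with voom and 0.0931 with the length trend taken off, an alternative chosen after seeing the data. Leaving out 1 library gave 0.13 to 0.203. Against Con it was 0.229, and was 0.092, 0.466, 0.342, 0.346 and 0.134 under the same alternatives, and 0.148 to 0.282 when 1 library was left out. None of the called channel genes changed sign under the alternatives run. With 3 libraries a group, exact tests of shares cannot give a p under 0.1, and at these depths 6 of the channel genes had a library with 0 reads. The cause of these changes was not tested.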
